A study of Homo sapiens with 19 samples.

Results

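DR1, DRAP1, BTAF1 and TBP were followed across the mRNA-seq libraries of a knockdown study in HepG2, a liver cancer cell line. The 4 genes were taken by symbol, and each was 1 row in both deposited tables, 4 of 34825 gene symbols. All 4 passed the filter on low values, a mean of at least 10 normalized counts, in both tables. In the first experiment, cells received the non-targeting siRNA NTG, siINO80#1 or siINO80#2, with 3 libraries each. INO80 is the ATPase of the INO80 chromatin remodeling complex. In the second, cells were given DMSO or the EZH2 inhibitor EPZ-6438 (1 µM) from 3 days before transfection, and then NTG or siMCRS1, the latter against a subunit of the same complex. This experiment had 2 libraries of DMSO with NTG, 3 of DMSO with siMCRS1, 3 of EPZ-6438 with NTG and 2 of EPZ-6438 with siMCRS1. All siRNAs were used at 50 nM and cells were harvested 72 hours after transfection. Each group was the same cell line, and the labels do not say whether replicates came from separate cultures, so p-values measure the spread between these libraries, which may be technical. In these bulk libraries, less RNA per cell and fewer expressing cells cannot be told apart.

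TBP is the TATA-binding protein, which nucleates transcription complexes for all nuclear RNA polymerases. Its function is limited by a pair of negative regulators. NC2 is a heterodimer of DR1 (NC2 beta) and DRAP1 (NC2 alpha), which join through histone folds, clamp onto TBP on DNA and block entry of TFIIA and TFIIB. BTAF1 (known as Mot1 in yeast) is a Swi2/Snf2-family ATPase that removes TBP from DNA. NC2, BTAF1 and TBP have been found bound together on DNA.

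Recovered depth was 17093574 to 25369547 reads per library for the INO80 siRNAs and their controls, and 26038505 to 47397233 for the MCRS1 experiment. The lowest count of any of the 4 genes in a library was 356 reads, for TBP, where counting error alone was 5.3%. Library siINO80#2 C stood apart from its replicates: the chi-square per degree of freedom of its reads was 84.3 and 121 against siINO80#2 A and B, and 9.45 to 18.7 for the 7 other replicate pairs of the INO80 experiment. In the MCRS1 experiment, whose libraries were deeper, replicate pairs gave 21.3 to 71.3, the highest for EPZ-6438 NTG 1 and 2. INO80 fell to 0.482-fold with siINO80#1 and 0.365-fold with siINO80#2, and MCRS1 fell to 0.0792-fold with siMCRS1 in DMSO and 0.0793-fold in EPZ-6438 (largest adjusted p = 5.94e-06 of the 4, limma). INO80 was itself lower with siMCRS1, at 0.83-fold in DMSO (adjusted p = 0.0387, limma) and 0.783-fold in EPZ-6438 (adjusted p = 0.00966, limma). The 6 liver markers examined were expressed in every group, with ALB between 109072.997 and 280466.14 normalized counts. Of 4 markers of other cell types, the epithelial keratin KRT5 was at or near 0, and the sum of the 4 was 215.47 to 953.96 normalized counts.

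The promoter windows of the NC2 genes are shown because DRAP1 was the member that rose with both INO80 siRNAs and DR1 the member that rose with siMCRS1. Each window runs from 250 bases before to 50 bases after the start of the gene on the plus strand, taken from RefSeq on GRCh38.p14. DRAP1 lies at chr11:65919426-65921563, and its window is chr11:65919176-65919475. DR1 lies at chr1:93345907-93369493, and its window is chr1:93345657-93345956. Capitals mark the GC box GGGCGG on either strand in both windows, and in DR1 also the ETS motif CCGGAAG on either strand.
DRAP1: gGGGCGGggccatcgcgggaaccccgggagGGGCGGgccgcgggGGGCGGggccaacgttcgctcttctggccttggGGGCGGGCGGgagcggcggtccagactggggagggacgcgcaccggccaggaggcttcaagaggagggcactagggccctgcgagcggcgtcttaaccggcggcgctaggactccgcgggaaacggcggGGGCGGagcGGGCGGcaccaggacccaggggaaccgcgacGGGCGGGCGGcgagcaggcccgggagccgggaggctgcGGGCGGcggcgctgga
DR1: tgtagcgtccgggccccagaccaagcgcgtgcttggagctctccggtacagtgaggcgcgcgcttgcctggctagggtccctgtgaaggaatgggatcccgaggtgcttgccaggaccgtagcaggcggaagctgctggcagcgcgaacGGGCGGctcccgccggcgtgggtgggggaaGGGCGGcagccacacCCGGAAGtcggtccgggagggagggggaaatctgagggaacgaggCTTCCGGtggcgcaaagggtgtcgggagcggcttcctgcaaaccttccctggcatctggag

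The DRAP1 window held 10 GC boxes, 2 pairs of which overlap, and the DR1 window held 2. A GC box was present in 44.6% of the 27305 promoter windows of the same length. The G and C content was 79.0% for DRAP1, at percentile 96.8 of all windows, and 68.3% for DR1, against a median of 58.3%. The ETS motif occurred 2 times in DR1 and 1 time in BTAF1, and was present in 10.7% of windows. BTAF1 lies at chr10:91923770-92031437 and TBP at chr6:170554369-170572859, both on the plus strand. Their windows had 54.0% and 59.0% G and C. The BTAF1 window held 3 copies of TGACG, a cyclic AMP response element half-site present in 25.0% of windows, and the TBP window held 1 CCAAT, present in 35.7%, and 1 GC box. Neither TATAAA (12.0% of windows), the YY1 motif AANATGGC (6.82%) nor the full response element TGACGTCA (1.98%) was found in any of the 4 on either strand. The full response element contains the half-site. Motif matches are letters in a window and were not tested as binding sites; the motifs were chosen after the expression values were seen.

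No RefSeq gene overlaps any of the 4 genes. The closest gene upstream of DRAP1 is C11orf68, on the opposite strand and 364 bases away, and the closest to DR1 is the long noncoding RNA CCDC18-AS1, 96 bases away on the opposite strand, for which no row was analysed here.

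As deposited, the values do not account for gene length. Divided by the longest annotated transcript (GENCODE), the NTG libraries of the INO80 experiment had 611 ± 18.6 (SD, n = 3) normalized counts per kilobase for DRAP1, 227 ± 1.97 for TBP, 223 ± 14.3 for BTAF1 and 134 ± 7.54 for DR1. BTAF1 and TBP thus did not differ beyond their spread on this scale. With the median transcript length, the order became BTAF1 (929), DR1 (826), DRAP1 (735) and TBP (261). The order of the 4 genes per kilobase depended on the transcript taken, through DR1, with a longest transcript of 10124 bases and a median of 1647, and BTAF1, with 8361 and 2003.

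**Figure D1:**
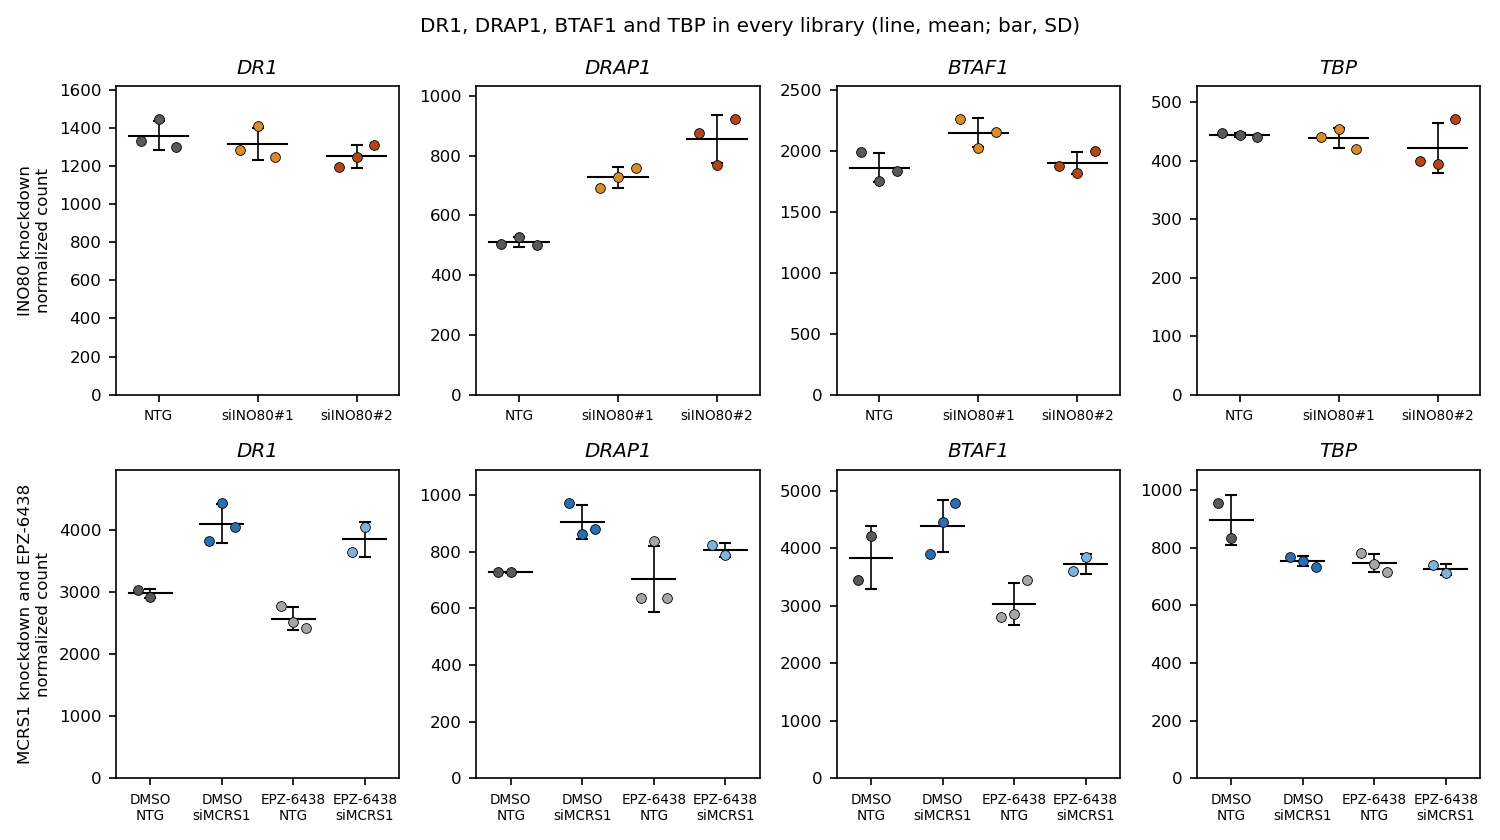
Normalized counts (y axis, linear from 0) of DR1, DRAP1, BTAF1 and TBP in every library (points) by group (x axis), with the mean (line) and SD (bar); the upper row is the INO80 experiment and the lower row the MCRS1 experiment. DRAP1 in the 6 siINO80 libraries sat between 692 and 922, above all NTG libraries (499 to 529), and DR1 in the 5 siMCRS1 libraries sat between 3643 and 4434, above all NTG libraries (2414 to 3028).

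To ask how the TBP regulators responded to knockdown of INO80 mRNA, each INO80 siRNA was compared with NTG. DRAP1, the alpha subunit of NC2, rose with both siRNAs, while DR1, its beta partner, did not pass the test with either. BTAF1 passed the test with siINO80#1 only, and TBP with neither. With siINO80#1, 2 of the 4 genes passed the test, both higher, against 41.6% of 14034 genes tested (20.7% higher and 20.8% lower). With siINO80#2, 1 of the 4 passed, higher, against 55.0% of genes (26.6% higher and 28.4% lower). Against these shares, a count of 1 or 2 among 4 genes says nothing particular about the group. Both comparisons use the same NTG libraries and are not independent. With siINO80#2, 3 of 6 liver markers were also lower, ALB (-0.57, adjusted p = 0.0158, limma), APOA1 (-0.84, adjusted p = 0.00342) and TTR (-0.59, adjusted p = 0.0045), and of 3 tested markers of other cell types the endothelial PECAM1 was higher (0.49, adjusted p = 0.00594) and COL1A1 lower (-0.63, adjusted p = 0.049). With siINO80#1 these 5 genes had values of 0.29, -0.09, -0.34, 0.28 and 0.62 in the same order and did not pass. The summed level of the 6 liver markers was 329706.79 to 456586.36 normalized counts in NTG, 362507.34 to 476574.71 with siINO80#1 and 298137.05 to 354592.94 with siINO80#2, and that of the 4 others 320.65 to 341.83, 411.34 to 444.18 and 323.95 to 417.57. The part of these markers in the values of the 4 genes was not tested.

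DRAP1 had 505, 529 and 499 normalized counts in NTG libraries A, B and C. It had 692, 730 and 760 with siINO80#1, and 875, 767 and 922 with siINO80#2. Every library of either siRNA was above every NTG library, and the libraries of the 2 siRNAs did not overlap each other either. Here and below, effects are differences of mean log2(value + 1) from limma, with p adjusted over all genes tested. The effect was 0.51 with siINO80#1 (SE 0.08, 1.42-fold, adjusted p = 0.000788) and 0.74 with siINO80#2 (SE 0.08, 1.67-fold, adjusted p = 3.52e-05). Both effects passed the threshold under every alternative tried, at 0.43 to 0.54 and 0.63 to 0.81. Without siINO80#2 C, which had the highest value, the second effect was 0.68 (adjusted p = 7e-05). The difference between the siRNAs, 0.23 (95% CI 0.04 to 0.42), did not pass (adjusted p = 0.0764), and it did when siINO80#2 library B was left out (0.31, adjusted p = 0.0237). None of the 4 genes passed in the comparison of siINO80#2 with siINO80#1, where 22.1% of all genes did. INO80 itself was lower with siINO80#2 than with siINO80#1, by a log2 difference of -0.40 (adjusted p = 0.00577).

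DR1 was measured at 1333, 1447 and 1303 normalized counts in the NTG libraries. It had 1285, 1411 and 1249 with siINO80#1, and 1195, 1248 and 1313 with siINO80#2. The 3 groups overlapped, and siINO80#1 was below NTG in each of the 3 same-lettered pairs. The effects were -0.05 (95% CI -0.22 to 0.12, adjusted p = 0.633) and -0.12 (95% CI -0.29 to 0.05, adjusted p = 0.201). When libraries were scaled to equal totals, the second became -0.23 and passed (adjusted p = 0.0415); that scaling moved the median of all genes to -0.11.

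BTAF1, the ATPase that dislodges TBP, was at 1990, 1754 and 1838 in NTG libraries. The values were 2259, 2024 and 2156 with siINO80#1, and 1875, 1820 and 1995 with siINO80#2. All siINO80#1 libraries were above all NTG libraries, while siINO80#2 overlapped NTG. The effect of siINO80#1 was 0.21 (SE 0.07, 1.15-fold, adjusted p = 0.0443), and that of siINO80#2 was 0.03 (95% CI -0.13 to 0.19, adjusted p = 0.767). The difference between the siRNAs was -0.18 (95% CI -0.34 to -0.01) and did not pass (adjusted p = 0.112). The call with siINO80#1 was near the threshold: it was lost with equal totals (0.13, adjusted p = 0.187), with quantile normalization (0.15, adjusted p = 0.128) and when any of 5 libraries was left out. These were siINO80#1 A (0.17, adjusted p = 0.147) and C (0.20, adjusted p = 0.111), NTG B (0.17, adjusted p = 0.151) and C (0.20, adjusted p = 0.109), and siINO80#2 A (0.21, adjusted p = 0.059).

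TBP, the protein on which the other 3 act, was at 448, 444 and 441 normalized counts in the NTG libraries. The SD of these values was 0.866% of their mean, below the counting error of 4.4 to 5.3% for TBP in this experiment. TBP had 441, 455 and 421 with siINO80#1, and 399, 395 and 471 with siINO80#2. The groups overlapped, and siINO80#2 library C was the highest of all 9. The effects were -0.02 (95% CI -0.22 to 0.18, adjusted p = 0.888) and -0.08 (95% CI -0.28 to 0.12, adjusted p = 0.475). Without siINO80#2 C the second was -0.16 (adjusted p = 0.0966). PSMB1, a proteasome subunit gene and the closest gene upstream of TBP at 1062 bases, was chosen after its values were seen. It was lower with both siRNAs, with effects of -0.40 (adjusted p = 0.0135) and -0.49 (adjusted p = 0.00279). C11orf68, upstream of DRAP1 and also chosen after its values were seen, had effects of 0.13 (adjusted p = 0.356) and -0.20 (adjusted p = 0.13).

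**Figure D2:**
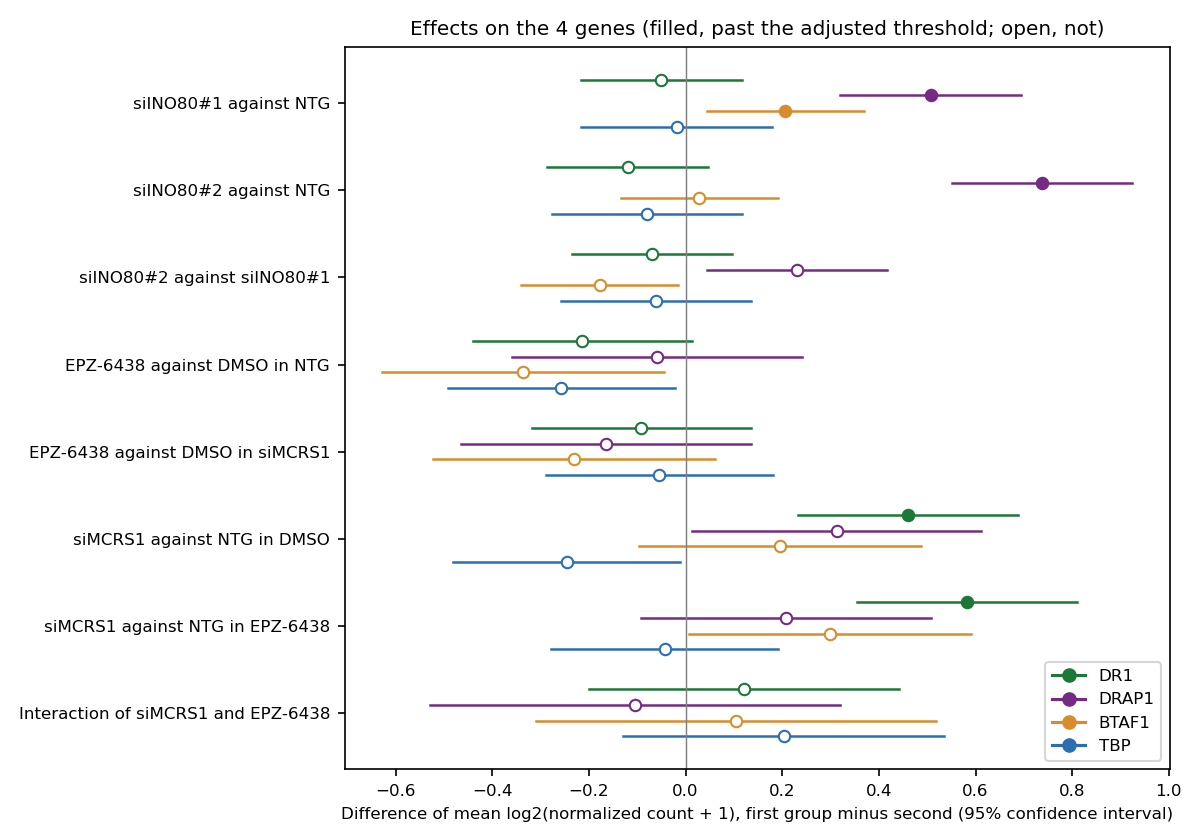
Difference of mean log2(normalized count + 1) between the first and second group named (x axis) for each comparison (y axis) and gene (colors), with 95% confidence intervals from limma; filled points passed the adjusted threshold of 0.05. DRAP1 was filled in both siINO80 comparisons with NTG (0.51 and 0.74), BTAF1 with siINO80#1 (0.21) and DR1 in both siMCRS1 comparisons (0.46 and 0.58).

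To ask whether knockdown of MCRS1 mRNA affected the same genes, siMCRS1 was compared with NTG within each treatment. The labels name a single siMCRS1, so effects of lower MCRS1 and other effects of that siRNA cannot be told apart. DR1 rose in both treatments. DRAP1, BTAF1 and TBP did not pass the test in either. In DMSO, 1 of the 4 genes passed, higher, against 47.7% of 14312 genes tested (23.1% higher and 24.6% lower). In EPZ-6438, 1 of 4 passed, higher, against 53.7% of genes (26.8% higher and 26.9% lower).

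DR1 was at 3028 and 2921 normalized counts in the DMSO NTG libraries and at 3818, 4434 and 4049 with siMCRS1. In EPZ-6438 it was at 2773, 2521 and 2414 with NTG and at 3643 and 4048 with siMCRS1. All siMCRS1 libraries were above all NTG libraries. The effect was 0.46 in DMSO (SE 0.10, 1.38-fold, adjusted p = 0.00391) and 0.58 in EPZ-6438 (SE 0.10, 1.50-fold, adjusted p = 0.000778). With libraries scaled to equal totals, the effect in DMSO fell to 0.23 and was not called (adjusted p = 0.0799), while that in EPZ-6438 was 0.34 (adjusted p = 0.0124). That scaling moved the median of all genes to -0.23 in both comparisons. The deposited totals were higher in siMCRS1 libraries, by 0.24 on the log2 scale for DMSO siMCRS1 over DMSO NTG and by 0.24 for EPZ-6438 siMCRS1 over EPZ-6438 NTG.

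DRAP1 was at 727 and 729 in DMSO NTG libraries and at 973, 862 and 881 with siMCRS1. In EPZ-6438 it was at 638, 839 and 636 with NTG and at 825 and 788 with siMCRS1. In DMSO the groups did not overlap, and in EPZ-6438 NTG library 2 was above both siMCRS1 libraries. The effects were 0.31 (95% CI 0.01 to 0.61, adjusted p = 0.0804) and 0.21 (95% CI -0.09 to 0.51, adjusted p = 0.222). Without that 1 library both effects passed, at 0.31 (adjusted p = 0.0304, limma) and 0.34 (adjusted p = 0.0301, limma). It is not part of the DMSO comparison, where the effect stayed at 0.31 and the spread estimated by the joint fit changed. With it kept, both effects also passed after quantile normalization, at 0.41 and 0.35, and with equal totals the values were 0.08 and -0.03.

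BTAF1 was at 3447 and 4217 in DMSO NTG libraries and at 3894, 4461 and 4788 with siMCRS1. In EPZ-6438 it was at 2800, 2851 and 3450 with NTG and at 3596 and 3842 with siMCRS1. The groups overlapped in DMSO, where the 2 NTG libraries differed widely, and not in EPZ-6438. The effects were 0.20 (95% CI -0.10 to 0.49, adjusted p = 0.248) and 0.30 (95% CI 0.01 to 0.59, adjusted p = 0.0781). In EPZ-6438 the effect passed without NTG library 3 (0.40, adjusted p = 0.0319). In DMSO its direction turned with equal totals (-0.04) and quantile normalization (-0.01).

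TBP was at 956 and 834 in DMSO NTG libraries and at 769, 756 and 735 with siMCRS1. In EPZ-6438 it was at 781, 744 and 717 with NTG and at 739 and 711 with siMCRS1. Both DMSO NTG libraries were above all other libraries of the experiment. The effects of siMCRS1 were -0.25 (95% CI -0.48 to -0.01, adjusted p = 0.079) and -0.04 (95% CI -0.28 to 0.19, adjusted p = 0.76). Both passed with equal totals, at -0.48 (adjusted p = 0.00373) and -0.28 (adjusted p = 0.0473), where the median of all genes was -0.23. In EPZ-6438 the direction turned with quantile normalization (0.10).

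In these siMCRS1 comparisons 1 of 3 tested markers of other cell types was also higher, the collagen gene COL1A1 (effects 1.25 and 2.91). The sum of the 4 markers was 415.52 to 484.81 normalized counts in DMSO NTG, 589.26 to 953.96 in DMSO siMCRS1, 215.47 to 368 in EPZ-6438 NTG and 731.19 to 888.47 in EPZ-6438 siMCRS1. Of the 6 liver markers, 0 were called in DMSO and 1 was higher in EPZ-6438. The liver marker sum was 425778.56 to 599406.66 in DMSO NTG and 477517.79 to 739392.62 in DMSO siMCRS1. In EPZ-6438 it was 495077.15 to 590183.26 with NTG and 629679.97 to 721011.36 with siMCRS1. The part of either set of markers in the values of the 4 genes was not tested.

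EPZ-6438 was compared with DMSO to ask what EZH2 inhibition did to the same genes. None of the 4 passed in NTG cells, where 0.384% of all genes did (55 genes), or in siMCRS1 cells, where 0.0908% did (13 genes). These background counts were unstable: DESeq2 called 721 and 150 genes, and leaving out single libraries gave 2 (without DMSO NTG 3) to 70 and 0 (without EPZ-6438 siMCRS1 A) to 26 genes. At an unadjusted p under 0.05, 2443 and 1305 of 14312 genes passed, and among the 4 genes BTAF1 and TBP did so in NTG cells. In NTG cells all 4 effects were negative, at -0.34 for BTAF1 (95% CI -0.63 to -0.04, adjusted p = 0.232), -0.26 for TBP (95% CI -0.49 to -0.02, adjusted p = 0.251), -0.21 for DR1 (95% CI -0.44 to 0.01, adjusted p = 0.317) and -0.06 for DRAP1 (95% CI -0.36 to 0.24, adjusted p = 0.865). The sign of the DRAP1 value turned when EPZ-6438 NTG library 1 or 3 was left out. In siMCRS1 cells the effects were -0.23, -0.05, -0.09 and -0.17 in the same order, with the smallest adjusted p at 0.674, for BTAF1. The DMSO NTG and EPZ-6438 NTG libraries served as controls in the siMCRS1 comparisons as well, so these sets of values are not independent.

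The interaction of siMCRS1 with treatment, the difference between the siMCRS1 effects in EPZ-6438 and in DMSO, was called for none of the 14312 genes by limma or edgeR (0.00%), for 5 by DESeq2, and for 336 at an unadjusted p under 0.05 in limma. For the 4 genes it was 0.12 for DR1 (95% CI -0.20 to 0.44), -0.10 for DRAP1 (95% CI -0.53 to 0.32), 0.10 for BTAF1 (95% CI -0.31 to 0.52) and 0.20 for TBP (95% CI -0.13 to 0.54). The adjusted p was 1 for each in limma.

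The subunits of NC2 act as a dimer, and BTAF1 acts on TBP, so each pair was also compared within a library, where the scaling of the library cancels. The difference of 2 genes in log2 includes their lengths, so that its level carries no meaning between genes and only its change does. DR1 minus DRAP1 was 1.40, 1.45 and 1.38 in NTG libraries, 0.89, 0.95 and 0.72 with siINO80#1, and 0.45, 0.70 and 0.51 with siINO80#2. All 6 siINO80 libraries were below all 3 NTG libraries. The 6 libraries pool 3 of each siRNA, whose ranges did not overlap (0.72 to 0.95 and 0.45 to 0.70). Their pooled mean was 0.70 ± 0.20 (SD, n = 6) against 1.41 ± 0.04 (SD, n = 3), a change of -0.71. An exact two-sided permutation test over 84 splits gave p = 0.0119, the smallest it can give, and 0.04 after adjustment over the 4 within-library comparisons made. That p treats the libraries of both siRNAs as replicates of a single treatment. The change was -0.56 with siINO80#1 alone and -0.86 with siINO80#2 alone, each at p = 0.1 in the exact test, the smallest that 3 against 3 libraries allow.

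With siMCRS1, DR1 minus DRAP1 was 1.97, 2.36 and 2.20 in DMSO and 2.14 and 2.36 in EPZ-6438. In NTG libraries it was 2.06 and 2.00 in DMSO and 2.12, 1.59 and 1.92 in EPZ-6438. The ranges overlapped. The change was 0.26, with labels exchanged within treatment (exact permutation test, 100 relabelings, two-sided p = 0.11, adjusted 0.11). Without DMSO siMCRS1 library 1 the change was 0.31 (exact p = 0.0333). The changes were 0.15 in DMSO and 0.37 in EPZ-6438. The INO80 and MCRS1 experiments were normalized in separate tables, and the difference between their changes was not tested.

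TBP minus BTAF1 was -2.15, -1.98 and -2.06 in NTG libraries of the INO80 experiment. It was -2.35, -2.15 and -2.35 with siINO80#1, and -2.23, -2.20 and -2.08 with siINO80#2. With both siRNAs pooled the ranges overlapped, and the change of -0.17 did not pass (exact permutation test, p = 0.0714, adjusted 0.0952). Without siINO80#2 library C the pooled change was -0.20 (exact permutation test, p = 0.0357). These pooled p-values treat the libraries of both siRNAs as replicates of a single treatment. With siINO80#1 alone all 3 libraries were below all NTG libraries, by a small margin, and the change was -0.23 (exact p = 0.1, the smallest possible). Within same-lettered pairs it was -0.21, -0.17 and -0.30. With siINO80#2 alone the change was -0.11 (exact p = 0.2). In the MCRS1 experiment the difference was -1.85 and -2.34 in DMSO NTG, -2.34, -2.56 and -2.70 in DMSO siMCRS1, -1.84, -1.94 and -2.27 in EPZ-6438 NTG, and -2.28 and -2.43 in EPZ-6438 siMCRS1. Within each treatment every siMCRS1 library was below every NTG library, by a small margin in both. The change was -0.39 (exact permutation test, p = 0.02, adjusted 0.04). It was -0.44 in DMSO alone and -0.34 in EPZ-6438 alone, each at exact p = 0.2, where 0.1 was the smallest possible. Leaving out DMSO NTG 1, DMSO siMCRS1 2 or 3, or EPZ-6438 siMCRS1 B brought p to 0.05 in the exact test, with changes of -0.27, -0.39, -0.35 and -0.35.

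**Figure D3:**
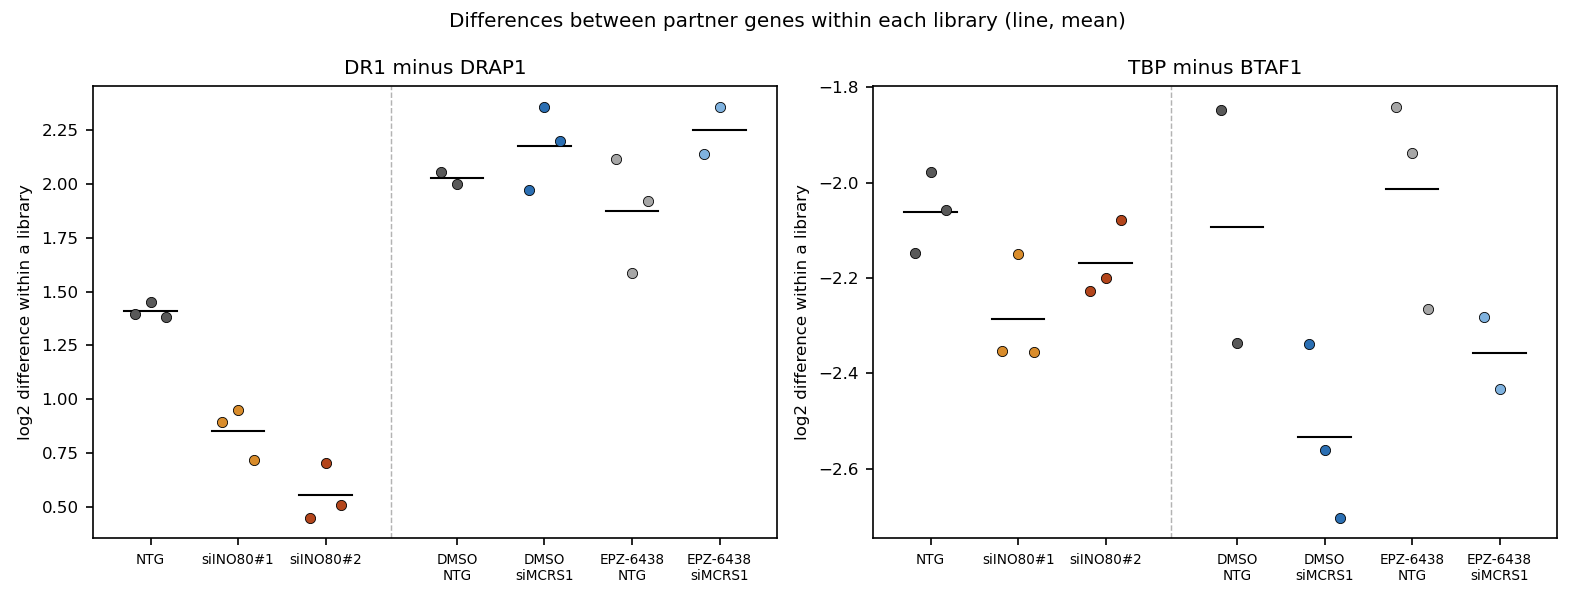
The log2 difference between 2 genes within each library (y axis, not starting at 0) by group (x axis), for DR1 minus DRAP1 (left) and TBP minus BTAF1 (right), with the mean as a line; the dashed line separates the experiments. The 6 siINO80 libraries lie between 0.45 and 0.95 for DR1 minus DRAP1, below the NTG libraries at 1.38 to 1.45.

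The other genes of the TBP machinery were taken as 5 lists by role, 38 genes in all, of which 36 passed the filter in the INO80 experiment and 37 in the MCRS1 experiment. TFIID is the complex of TBP with its associated factors, the TAFs. With siINO80#1, 8 of 15 TAF genes of TFIID were lower and 0 higher, and with siINO80#2, 8 were lower and 2 higher. Among all genes, 20.8% were lower and 20.7% higher with siINO80#1, and 28.4% and 26.6% with siINO80#2. By edgeR and DESeq2 the counts were the same. The list medians were -0.39 and -0.31, against 0.00 for all genes tested in both. With siMCRS1, 5 were lower and 3 higher in DMSO, and 6 were lower and 3 higher in EPZ-6438, where 24.6% and 26.9% of all genes were lower and 23.1% and 26.8% higher, with medians of -0.28 and -0.27 against 0.00 and 0.01 for all genes. With equal totals 9 were lower and 2 higher in each. When single libraries were left out, the lower count in DMSO was 3 to 6, with 3 reached without DMSO NTG 3, and in EPZ-6438 it was 4 to 8, with 4 reached without EPZ-6438 NTG 2, siMCRS1 A or siMCRS1 B.

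TAF9B, a paralog of TAF9 in the histone-fold core, was lower with both INO80 siRNAs (-1.36 and -0.89; adjusted p = 3.18e-06 and 2.23e-05, limma) and with siMCRS1 in both treatments (-0.73 and -0.66; adjusted p = 0.000447 and 0.00061, limma). TAF12, another histone-fold subunit, was lower with both (-0.64 and -0.60) and with siMCRS1 in both treatments (-0.90 and -0.95; adjusted p = 0.000394 and 0.000203, limma). TAF6 was lower in all 4 comparisons, at -0.44, -0.72, -1.31 and -1.50. TAF13 went opposite ways with the INO80 siRNAs, at -1.04 and 0.33, and rose with siMCRS1 (0.85 and 1.00); the value of 0.33 was not called with equal totals, and the difference between the siRNAs was 1.37 (adjusted p = 5.88e-05, limma).

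The general factors TFIIA and TFIIB compete with NC2 for TBP. Of 4 tested genes of this list, which includes the TBP relatives TBPL1 and TBPL2, 0 passed with siINO80#1 and 1 with siINO80#2, which was TBPL1 (0.39). Among all genes, 41.6% and 55.0% passed. With siMCRS1, 4 of 5 tested were higher in each treatment, as DR1 was, with list medians of 0.43 and 0.50. Among all genes, 23.1% were higher in DMSO and 26.8% in EPZ-6438. The TFIIA subunit genes GTF2A1 (0.49 and 0.50) and GTF2A2 (0.43 and 0.43) and the TFIIB gene GTF2B (0.47 and 0.52) rose in both. With equal totals none of the 5 was called, at list medians of 0.20 and 0.26 against -0.23 for all genes. Without DMSO NTG 3, 1 was called in DMSO, and without DMSO siMCRS1 2, 2 were. Without EPZ-6438 siMCRS1 B, 1 was called in EPZ-6438. GTF2A1L, the germ cell form of TFIIA alpha, was at or near 0 in every library.

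TBP also works in SL1 for RNA polymerase I, where TAF1C was lower with siMCRS1 (-0.80 and -1.01), and 0 of 4 genes passed with either INO80 siRNA. Of all genes, 41.6% passed with siINO80#1 and 55.0% with siINO80#2. TAF1A and TAF1B passed as higher with siMCRS1 in EPZ-6438 and not in DMSO, and no interaction was called. In TFIIIB and SNAPc, which serve RNA polymerase III and small nuclear RNA genes, 3 of 8 genes were higher and 1 lower with siINO80#1, and 4 were higher and 1 lower with siINO80#2. Called shares of 4 and 5 of 8 are near those of all genes (41.6% and 55.0%), and with equal totals the counts were 3 higher and 2 lower, and 3 higher and 3 lower. With siMCRS1, 3 were higher and 1 lower in DMSO, and 2 were higher and 1 lower in EPZ-6438. Of all genes, 47.7% were called in DMSO and 53.7% in EPZ-6438. SNAPC5 fell in all 4 comparisons (-0.81, -0.97, -1.09 and -1.02) and SNAPC1 rose in all 4 (0.78, 0.90, 0.95 and 1.10). SNAPC4 rose with the INO80 siRNAs (0.72 and 1.08) and SNAPC3 with siMCRS1 (0.31 and 0.32), the latter not called with equal totals or quantile normalization. Among 5 other histone-fold genes, relatives of NC2 in fold, 0 passed with siINO80#1 and 2 were lower with siINO80#2. Of all genes, 20.8% and 28.4% were lower. With equal totals 2 and 3 of the 5 were lower, and with quantile normalization 0 and 1. With siMCRS1, 1 of the 5 was higher in each treatment, POLE4 (0.86 and 0.99), against 23.1% and 26.8% of all genes. In limma, edgeR and DESeq2 none of the 37 genes passed in either comparison of EPZ-6438 with DMSO, where 4 (NTG) and 2 (siMCRS1) had an unadjusted p under 0.05 in limma. Of all genes, 0.384% (NTG) and 0.0908% (siMCRS1) passed in limma, so the absence of calls says nothing particular about these lists. With siINO80#1, no gene was called in the TFIIA and TFIIB list, SL1 or the histone-fold list. In these lists 0, 0 and 1 genes had an unadjusted p under 0.05 in limma. With siINO80#2, only SL1 had no gene called, and it had 0 genes at an unadjusted p under 0.05. In these cases edgeR and DESeq2 called none either.

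**Figure D4:**
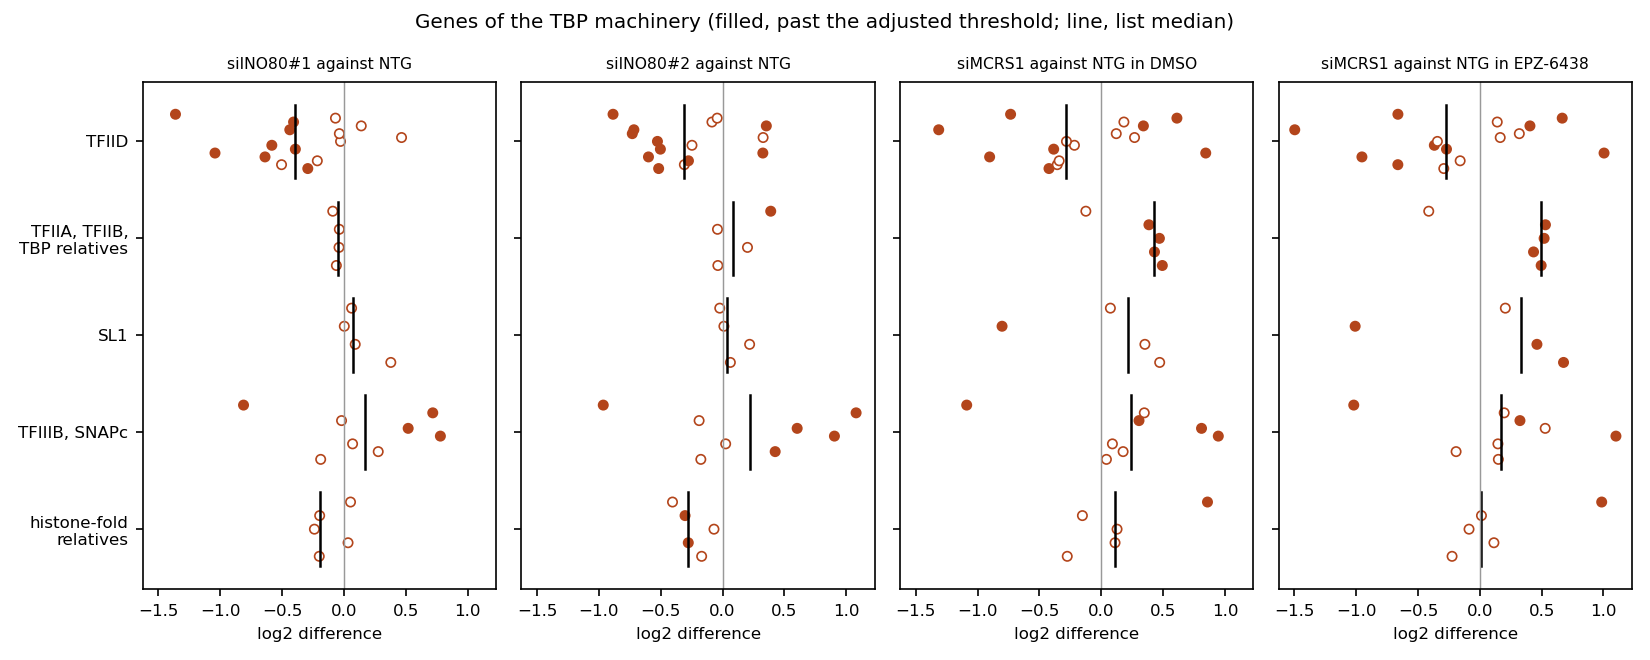
Difference of mean log2(normalized count + 1) against NTG (x axis) of genes of the TBP machinery by list (y axis) in 4 comparisons (panels); each point is a gene, filled where it passed the adjusted threshold, and the black line is the list median. TFIID medians lie at -0.39, -0.31, -0.28 and -0.27.

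Genes with profiles most like each member were found by the root-mean-square difference of log2(value + 1), centred within each experiment, over 19 libraries and among 11420 genes with a mean of at least 50 in both. For DR1 these were BTBD1 (0.05), ABI1 (0.07) and EIF4E (0.07), where DR1 itself varied by 0.22. For DRAP1 they were SMARCA4 (0.09), ASCC2 (0.09) and ANKIB1 (0.10), where DRAP1 varied by 0.26. For BTAF1 they were RBM27 (0.08), PRPF4B (0.08) and THOC2 (0.08), and for TBP MAPK9 (0.08), NSMAF (0.08) and BRD7 (0.08), near TBP's own variation of 0.10. The NC2 subunits differed by 0.30 on this measure, and DR1 ranked 3392 of the 11420 genes by nearness to DRAP1. DRAP1 differed by 0.26 from BTAF1 and by 0.30 from TBP, so the distance was not particular to the NC2 pair. The libraries are shared between all genes, and the measure is a description with no test.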

How the data were processed

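mRNA-seq libraries of HepG2 cells (19 in all) were made with a stranded Kapa kit; per the labels, reads were processed with kallisto and DESeq2 on GRCh38, with versions and annotation not given in the sources used here. Each experiment was deposited as a table of 34825 symbols whose signal is the estimated count of a gene over the size factor of its library. Whether counting used the strand was not stated. Whole reads were recovered from the smallest step of each library (tolerance 0.01 reads). Same-lettered libraries of NTG and siINO80#1 deviated together (correlations of 0.135 to 0.263) and those of other groups did not in every pair; letters came from the sample titles. No pair of replicates was close enough to be 1 library deposited again.

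On the scale log2(value + 1), limma 3.58.1 in R 4.3.3 (eBayes, trend on) tested the genes whose mean reached 10, with every group of a table fitted jointly. A Benjamini-Hochberg adjusted p under 0.05 was called. Intervals are 95% from the same fit. Differences between 2 genes within a library were compared by exact permutation tests, with the libraries of both INO80 siRNAs pooled in the main test. Alternatives were other pseudocounts (0.1 and 5), filters (none and a mean of 50), scalings (equal totals and quantile normalization), eBayes without a trend, only the groups compared, edgeR 4.0.16 and DESeq2 1.42.0 on recovered reads, a replicate block (with only NTG and siINO80#1 added after values were seen), and leaving out each library. The code was tested on simulated data.

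Genes were named by a rule: the 4 members, the targeted genes INO80 and MCRS1, up to 3 genes per list passing in both comparisons of a knockdown in the same direction, ordered by the smaller effect, and the 3 nearest profiles of each member. Members and lists were chosen with earlier results of these data known. TBPL1, TAF1A and TAF1B, the upstream neighbours, the motifs and the partner lists under other scalings were added after values were seen. Transcript lengths came from GENCODE v44 lifted to the genome build before GRCh38, and promoter windows from RefSeq GRCh38.p14. Groups came from the sample labels; drug-table columns were matched to groups by name.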

Additional observations from a re-analysis of the deposited data

Results flagged for a closer look

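Among the genes named with effects, 9 had effects that differed between the INO80 siRNAs by a test of the difference itself (siINO80#2 minus siINO80#1, limma), and none of these was DR1, DRAP1, BTAF1 or TBP. Of the 36 tested genes of the TBP machinery, 6 were higher with siINO80#2 than with siINO80#1 and 4 lower, where 22.1% of all genes differed. Outside the naming rule these included TAF5 (-0.69, adjusted p = 0.0014, limma) and TAF4 (-0.50, adjusted p = 0.0114, limma). Of those named, TAF13 differed by 1.37 (SE 0.11, adjusted p = 5.88e-05), at -1.04 with siINO80#1 and 0.33 with siINO80#2. TBPL1 differed by 0.48 (SE 0.09, adjusted p = 0.00577), at -0.09 and 0.39. TAF9B differed by 0.48 (SE 0.10, adjusted p = 0.00601) and was lower with both, and SNAPC4 differed by 0.36 (SE 0.10, adjusted p = 0.0238) and was higher with both. The targeted gene INO80 differed by -0.40 (adjusted p = 0.00577). C11orf68, upstream of DRAP1, differed by -0.33 (adjusted p = 0.0459). Of the markers, ALB differed by -0.86 (adjusted p = 0.00589), APOA1 by -0.74 (adjusted p = 0.0189) and COL1A1 by -1.25 (adjusted p = 0.0055). The groups held 2 or 3 libraries, and no test for single values far from the others was made.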

How the results depend on the processing

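Of 32 effects of the 4 genes, 16 kept their direction and side of the threshold in all 19 to 21 alternatives, among them DRAP1 with both INO80 siRNAs and DR1 with siMCRS1 in EPZ-6438. The cause of the changes below was not tested. With equal totals, which moved the median of all genes to -0.08 and -0.11 (siINO80#1 and siINO80#2) and -0.23 (siMCRS1), the value was 0.13 for BTAF1 with siINO80#1, -0.23 for DR1 and -0.081 for BTAF1 with siINO80#2, 0.23 for DR1, -0.04 for BTAF1 and -0.48 for TBP with siMCRS1 in DMSO, and -0.031 for DRAP1 and -0.28 for TBP in EPZ-6438. Calls that were higher then made up 39.8% and 38.7% of all calls with the INO80 siRNAs (49.9% and 48.3% as deposited) and 27.1% and 30.2% with siMCRS1 (48.4% and 50.0%).

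With quantile normalization, BTAF1 was 0.15 and TBP 0.033 with siINO80#1, TBP 0.0085 with siINO80#2, DRAP1 0.41 and BTAF1 -0.013 with siMCRS1 in DMSO, and DRAP1 0.35 and TBP 0.10 in EPZ-6438. BTAF1 with siINO80#1 stayed at 0.21 but lost its call without the filter (adjusted p = 0.0769, more genes tested) and without the trend. Genes called for EPZ-6438 in NTG numbered 55, and 20 without the filter, 85 with quantile normalization, 19 without the trend and 721 by DESeq2; in siMCRS1 they numbered 13, and 4 without the filter, 7 without the trend, 0 with only the groups compared and 150 by DESeq2. DESeq2 called 5 interactions.

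Leaving out single libraries gave 0.17 to 0.26 for BTAF1 and -0.045 to 0.012 for TBP with siINO80#1, -0.013 to 0.078 for BTAF1 with siINO80#2, and 0.17 to 0.31 for DRAP1 and 1948 to 3476 calls between the siRNAs. For EPZ-6438 in NTG it gave 2 to 70 calls and -0.19 to 0.0072 for DRAP1, and in siMCRS1 0 to 26 calls. For siMCRS1 it gave 0.26 to 0.35 for DRAP1 in DMSO, and 0.14 to 0.34 for DRAP1, 0.25 to 0.40 for BTAF1 and 5060 to 7573 calls in EPZ-6438. For the interaction it gave 0 to 3 calls, -0.17 to 0.027 for DRAP1 and -0.041 to 0.25 for BTAF1. The change in DR1 minus DRAP1 with siMCRS1 was 0.19 to 0.32, and that in TBP minus BTAF1 was -0.21 to -0.13 with siINO80 and -0.51 to -0.27 with siMCRS1. With each siRNA or treatment alone, too few libraries were left to pass: DR1 minus DRAP1 changed by -0.56 and -0.86 with siINO80#1 and siINO80#2, and TBP minus BTAF1 by -0.44 in DMSO and -0.34 in EPZ-6438 with siMCRS1. Where a group was left with 1 library, its spread was assumed to be that of the other groups.

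With the median transcript length, levels per kilobase in NTG were 826 (DR1), 735 (DRAP1), 929 (BTAF1) and 261 (TBP), and in DMSO NTG 1806, 1047, 1913 and 526.

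Libraries of the INO80 experiment share replicate letters, and deviations from the group means correlated by 0.10 on average between libraries of the same letter (-0.08 to 0.26, 9 pairs) and by -0.05 between others (18 pairs), so the letters were not taken as pairs throughout. Between NTG and siINO80#1 alone all 3 same-lettered pairs were over 0.1 (0.14 to 0.26), and a replicate block with only these 6 libraries, added after the values were seen, called 8216 genes and changed no call of the 4 genes, with adjusted p = 5.41e-05 for DRAP1, 0.00238 for BTAF1, 0.387 for DR1 and 0.826 for TBP (limma). Over all 9 libraries a replicate block gave 6327, 8127 and 3590 calls for siINO80#1, siINO80#2 and their difference (5833, 7725 and 3096 without it) and changed no call of the 4 genes, with DRAP1 at adjusted p = 0.00141 and 0.000107 (limma). No paired fit was made for the MCRS1 experiment, whose columns do not carry the letters of the labels.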
